A study of Mus musculus with 2 samples.

Results

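Mir183, Mir96 and Mir182 are 3 microRNA genes of 1 genomic cluster on mouse chromosome 6, and they were followed here in heart tissue as 3 of the 2202 microRNA genes counted. They were taken by their GENCODE M21 gene names. The tissue came from male B6CASTF1/J mice, a first-generation cross of C57BL/6J with the wild-derived CAST strain, at an age of 10 days. The series holds 1 library of short RNA from each of 2 heart samples, labelled biological replicates 1 and 2 of a single group. It has no treatment and no other tissue, age or genotype. The labels give both samples 1 donor identifier, so the spread between the libraries may not be that between animals. The cluster was selected on measured values, the counts of its genes and their ratio between these libraries, so its levels and its difference between the libraries are a description and carry no test.

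The cluster is copied from the minus strand as 1 primary transcript, from which each hairpin is cut by Drosha and then Dicer into a short mature microRNA. The mature strand, loaded into an Argonaute protein, pairs with messenger RNAs mainly through its seed, the stretch of bases near its 5′ end. The cluster is best known from sensory cells, where its members are abundant in photoreceptors of the retina and hair cells of the inner ear, and changes in the seed of miR-96 cause hearing loss in mice and humans. miR-182 is also induced in activated helper T cells, where it acts on Foxo1.

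The mature 5′ arms are printed from RefSeq (GRCm38.p6) because they show how alike the 3 members are. Capitals mark the seed, bases 2 to 8.
miR-183-5p: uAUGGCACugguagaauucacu
miR-96-5p: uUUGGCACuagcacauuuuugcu
miR-182-5p: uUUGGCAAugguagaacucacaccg
Each of the 3 seeds differs from the others. With positions counted from 1 at the 5′ end and the base of miR-182-5p first, miR-96-5p differs from miR-182-5p within the seed at A8C alone, and miR-183-5p at U2A and A8C. Set against miR-96-5p, miR-183-5p differs in the seed at U2A alone. Beyond the seed miR-183-5p is more like miR-182-5p, with 12 of 14 positions identical, while miR-96-5p has 5 of 15. In the RefSeq table miR-1271-5p, encoded by Gm24195, is the 1 other mature microRNA with the seed of miR-96-5p, and no other mature microRNA has the seed of miR-182-5p or miR-183-5p. Gm24195 had 0 counts in both libraries, which allows up to 0.8003 CPM in replicate 1 and 0.476 CPM in replicate 2, where CPM is the number of counts per 1000000 counts on all microRNA genes.

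The hairpins are the units that were counted, and capitals mark their mature arms, 5′ arm first.
Mir183: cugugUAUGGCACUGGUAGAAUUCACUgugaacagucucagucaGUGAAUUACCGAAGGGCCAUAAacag
Mir96: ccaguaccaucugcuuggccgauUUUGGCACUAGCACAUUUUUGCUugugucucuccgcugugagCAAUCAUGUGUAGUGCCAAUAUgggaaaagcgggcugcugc
Mir182: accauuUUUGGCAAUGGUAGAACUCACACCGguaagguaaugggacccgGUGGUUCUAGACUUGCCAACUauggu
On the mm10 build Mir183 (ENSMUSG00000065619.2) lies at chr6:30169668-30169737, Mir96 (ENSMUSG00000065586.1) at chr6:30169446-30169551 and Mir182 (ENSMUSG00000076361.1) at chr6:30165918-30165992, all on the minus strand. Mir183 and Mir96 are 116 bases apart, and Mir182 follows 3453 bases further on. The span of 3820 bases overlaps no other annotated gene and lies between Nrf1 on one side and Ube2h on the other, so no host gene contains the cluster. The hairpins are 70, 106 and 75 bases long, in the order printed. None of the 3 shares a stretch of 20 bases with another counted hairpin, and none of the 6 mature arms occurs in another counted hairpin. Because a count is given per hairpin, reads from the 5′ and the 3′ arm cannot be told apart.

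Depth and the microRNAs of cardiac muscle were looked at first. Replicate 1 had 3748432 gene-strand counts over all microRNA genes and replicate 2 had 6305782, and levels are given as CPM of these totals. At these depths 3 counts, the limit that a count of 0 allows, equal 0.8003 and 0.476 CPM. Intervals are exact 95% intervals. They hold for counting error only, as copies made by PCR are not separate molecules. A gene is called detected with 10 counts or more in each library, which 340 genes reached. Of the 7 cardiac muscle microRNAs 6 were detected, and the list held 0.832% of replicate 1's counts and 1.25% of replicate 2's. Lists of epithelial (6 of 6), lymphoid and myeloid (5 of 5) and erythroid genes (4 of 4) were detected in full. Detection alone therefore does not identify the tissue. Reads with several mapping positions are in no gene count, and their share was 36.8% in replicate 1 against 48.1% in replicate 2. In bulk tissue, fewer cells of a type and less RNA per cell cannot be told apart.

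Mir182, which gives rise to miR-182, had the most counts of the 3 members. How evenly the libraries captured different microRNAs was not measured, so the members are compared in counts, not in molecules. Mir182 had 501 counts in replicate 1 and 228 counts in replicate 2, or 134 CPM (interval 122 to 146) and 36.2 CPM (31.6 to 41.2). Its level therefore held rank 148 of the 2202 genes in replicate 1 and rank 198 in replicate 2, well inside the detected range and far from the leading heart microRNAs. Mir183, the first hairpin of the transcript, had 176 and 86 counts, or 46.95 CPM (40.3 to 54.4) in replicate 1 and 13.6 CPM (10.9 to 16.8) in replicate 2. It ranked 196 and 245.

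Mir96, the middle hairpin, was nearly absent from the counts. It had 2 counts in each library, below the limit of 3 counts, which is 0.534 CPM (0.0646 to 1.93) in replicate 1 and 0.317 CPM (0.0384 to 1.15) in replicate 2. It shared its count of 2 with 49 other genes in replicate 1 and 61 others in replicate 2, so its rank carries no information.

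**Figure D1:**
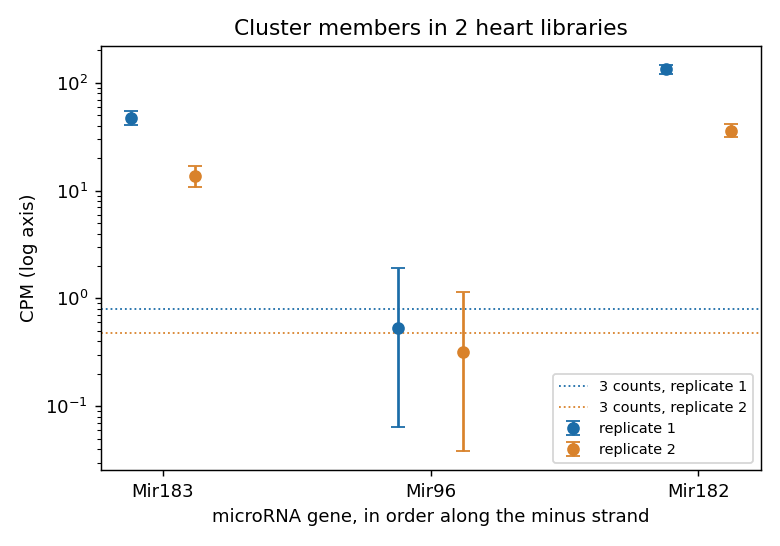
CPM of Mir183, Mir96 and Mir182 on a log axis, in order along the minus strand, with 1 point per library and exact 95% counting intervals; dotted lines mark the CPM of 3 counts in each library. Mir182 stands above Mir183 in both libraries, both stand higher in replicate 1, and Mir96 lies under the dotted line of its library.

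The order Mir182, Mir183, Mir96 was the same in both libraries, and within each library the intervals of the 3 levels did not overlap. Over the libraries Mir182 averaged 84.9 ± 68.9 CPM, Mir183 30.3 ± 23.6 CPM and Mir96 0.425 ± 0.153 CPM (SD, n = 2). The difference between the means of Mir182 and Mir183 is smaller than the SD of Mir182, while inside each library the levels are apart. The hairpin lengths, 70 to 106 bases, differ too little for division by them to change this order, so nothing is read from it. Per 100 bases, Mir182, Mir183 and Mir96 had 178, 67.1 and 0.503 CPM in replicate 1. In replicate 2 they had 48.2, 19.5 and 0.299 CPM.

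The make-up of the cluster was nearly constant although its level was not. Mir182 exceeded Mir183 by 2.85-fold in replicate 1 (interval 2.39 to 3.40) and by 2.65-fold in replicate 2 (2.06 to 3.44), a mean log2 ratio of 1.46 ± 0.07 (SD, n = 2). Of the cluster's 679 counts in replicate 1, Mir182 took 73.8% (70.3% to 77.1%), and of its 316 counts in replicate 2 it took 72.2% (66.9% to 77.02%). Mir183 took 25.9% in replicate 1 (22.7% to 29.4%) and 27.2% in replicate 2 (22.4% to 32.5%). The intervals overlap for each of these shares.

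Mir96 took 0.295% of the cluster's counts in replicate 1 (0.0357% to 1.06%) and 0.633% in replicate 2 (0.0767% to 2.27%). Mir183, its neighbour 116 bases away, had 88.0 times its count in replicate 1 (interval 24.002 to 732) and 43.0 times in replicate 2 (11.5 to 361). These wide intervals come from the 2 counts of Mir96. Hairpins with few counts were looked for in the other clusters of the genome. Grouping counted microRNA genes on 1 strand with neighbours at most 10 kb apart gave 44 clusters with at least 2 detected genes, and 122 of their 279 genes had at most 3 counts in both libraries. The cluster from Gm22072 to Mir669h alone held 110 of these 122, and of the 160 genes in the other 43 clusters 12 (7.50%) had so few counts, Mir96 among them. Such genes stood between detected ones in 5 of the 44 clusters, the Mir183 cluster among them. Of the 7 clusters with exactly 3 counted genes, 6 had all 3 detected, and the Mir183 cluster was the other.

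As a whole the cluster held 0.0181% of replicate 1's counts (0.0168% to 0.0195%) and 0.00501% of replicate 2's (0.00447% to 0.005595%), a mean of 0.0116% ± 0.00927 (SD, n = 2). After TMM scaling, which sets the libraries' totals so that most genes agree, the summed count was 3.21-fold higher in replicate 1 (log2 ratio of replicate 1 over replicate 2 1.68, interval 1.49 to 1.88). Mir182 was 3.28-fold higher (log2 ratio 1.71, interval 1.49 to 1.95) and Mir183 3.05-fold (log2 ratio 1.61, interval 1.23 to 2.001). No ratio is given for Mir96, whose count lies under 3 in both libraries. These ratios compare 2 libraries of 1 group and say nothing of a condition.

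Both detected members were at least 2-fold higher in replicate 1, against 33 of all 340 detected genes (9.71%). Since the cluster was chosen with this difference known, nothing is read from that share. In the order of log2 ratios Mir182 stood at place 13 and Mir183 at place 15 of the 340. The median log2 ratio of all detected genes was 0.02, with 95% of them between -1.79 and 1.87, so both members lie inside that range and near its upper end. Depth and the share of reads with several mapping positions differed between the libraries too, and their part in the cluster's difference was not tested. The labels name no batch for either library.

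**Figure D2:**
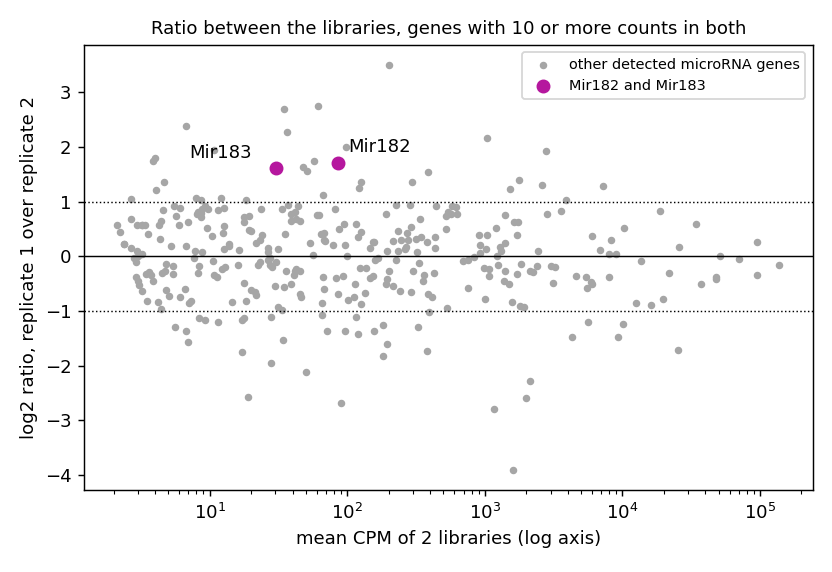
Log2 ratio of replicate 1 over replicate 2 after TMM scaling against mean CPM (log axis) for the 340 detected genes; dotted lines mark 2-fold. Mir182 at 1.71 and Mir183 at 1.61 lie above the upper dotted line, among 33 genes that do.

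Mir182 and Mir183 differed between the libraries by almost the same amount, which restates their near-constant ratio given above. Their log2 ratios were 0.11 apart, and of 106 other pairs of neighbouring detected genes within clusters 13 were closer together, while the median distance was 0.55. These pairs were compared after the cluster's values were seen, and clusters with more detected genes supply more of them. Among the 44 clusters 25 (56.8%) had all detected genes on 1 side of 0. The Mir183 cluster was the 1 cluster whose detected genes were all at least 2-fold higher in replicate 1, with TMM, with DESeq2 size factors and with total counts alike, and this count was made after its values were seen. With TMM, 3 clusters were at least 2-fold lower in all detected genes, those of Mir194-1 and Mir215, Mir130b and Mir301b, and Mir1949 and Gm49347. Of clusters with at least 3 detected genes in 1 direction, Mir25, Mir93 and Mir106b ran from -0.74 to -0.37 and Mir23a, Mir27a and Mir24-2 from -0.87 to -0.08.

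**Figure D3:**
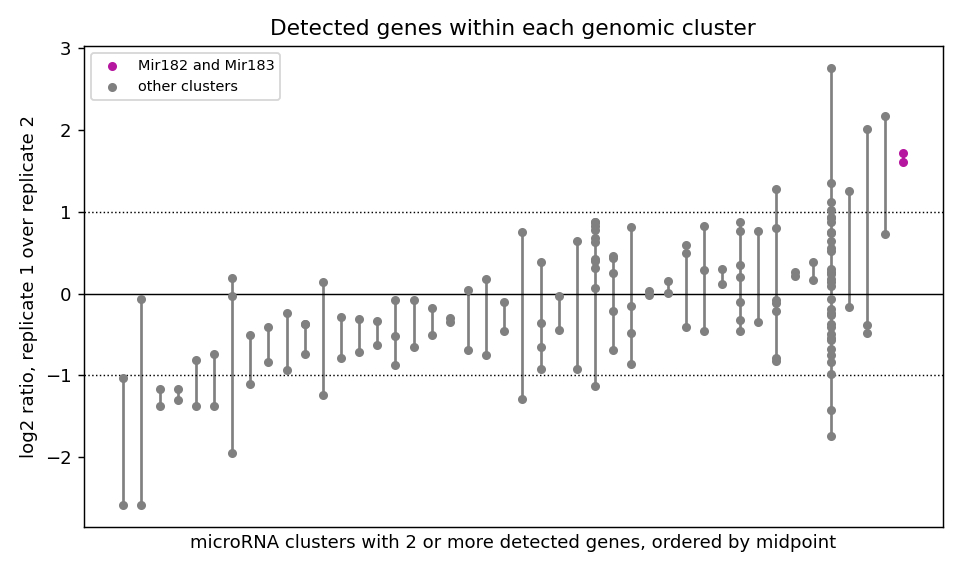
Log2 ratio of replicate 1 over replicate 2 for each detected gene of the 44 genomic microRNA clusters with at least 2 detected genes; each column is 1 cluster, the line spans its genes and dotted lines mark 2-fold. Mir182 and Mir183, in colour at the right, lie close together at 1.71 and 1.61.

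Genes of like pattern were found by Euclidean distance between log2(CPM + 1) values over the 2 libraries, among detected genes outside the cluster. Nearest to Mir182 was Mir24-1, with 160 CPM in replicate 1 and 35.4 CPM in replicate 2 (distance 0.263), followed by Mir485 with 93.9 and 38.4 CPM and Mir669c with 110 and 53.4 CPM. The hairpins of Mir24-1 and Mir669c share 20 bases with other counted hairpins, which makes their levels uncertain. Nearest to Mir183 were Mir193a with 61.9 and 11.3 CPM (distance 0.467), Mir673 with 31.7 and 15.4 CPM and Mir770 with 45.4 and 22.04 CPM. For Mir96, with 2 counts in each library, the search among genes with 10 counts or more could find no close gene. It returned genes at the edge of that filter, Mir8101, Mir7662 and Mir129-1, which are not read as alike. With 2 libraries, this likeness rests on 2 values a gene.

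A list drawn up for sensory and neuroendocrine cells lay on both sides of 0. It held Mir375, Mir7-1, Mir7-2, Mir7b, Mir204, Mir211, Mir129-1, Mir129-2, Mir219a-1 and Mir219a-2. How particular each gene is to such cells was not tested. Of these 10 genes outside the cluster 8 were detected. At least 2-fold higher in replicate 1 was 1 of them, Mir7b with 14 and 10 counts (9.71% of all detected genes were). None of the 8 was 2-fold lower (10.6% were). Their median log2 ratio was 0.16, and the levels of all 10 summed to 122 CPM in replicate 1 against 114 CPM in replicate 2. The hairpins of 6 of the 10 share 20 bases with other counted hairpins. Their reads may be among those with several mapping positions, so the median and sums are uncertain. Mir204, abundant in the retinal pigment epithelium, led the list with 61.6 and 71.05 CPM (log2 ratio -0.38). Mir7-1, linked to neuroendocrine cells, had 17.9 and 14.7 CPM (log2 ratio 0.11), and shares 20 bases with another hairpin. Mir375, a microRNA of pancreatic islets, had 15.5 and 7.61 CPM (log2 ratio 0.85).

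Markers of neurons, epithelia and blood cells were set beside the cluster, since each of these can be present in heart tissue. The neural list summed to 2 counts in each library over 6 genes, with all 3 Mir124a genes and Mir9-2 at 0 in both and Mir9-3 at 1 and 2 counts. All 6 neural hairpins share 20 bases with other counted hairpins, so their reads may be among those with several mapping positions. The epithelial list, with 6 of 6 genes detected, summed to 476 CPM in replicate 1 against 546 CPM in replicate 2. Its median log2 ratio was -0.17. Of its genes 1, Mir200b, was at least 2-fold lower in replicate 1 (10.6% of all detected genes were). None was 2-fold higher (9.71% were). Mir200c, which holds cells in an epithelial state, had 403 and 443 CPM, and Mir200b had 12.5 and 43.5 CPM (log2 ratio -1.95).

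The lymphoid and myeloid list, with 5 of 5 genes detected, summed to 2947 CPM in replicate 1 against 3039 CPM in replicate 2. None of its genes was 2-fold higher in replicate 1 (9.71% of all detected genes were) and 2 were lower (10.6% were), the leukocyte microRNA Mir142 by a log2 ratio of -1.27 and the myeloid Mir223 by -2.12, with a list median of -0.95. Mir155, which is induced in activated lymphocytes and macrophages, had 1430 and 1191 CPM (log2 ratio 0.09), and Mir146 had 988 and 846 CPM (log2 ratio 0.05). The erythroid list, with 4 of 4 genes detected and none past 2-fold, summed to 10228 CPM in replicate 1 against 8856 CPM in replicate 2, led by Mir451a (9591 and 8251 CPM) and Mir144 (316 and 453 CPM).

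The muscle and vessel lists had medians below 0. Of its 6 detected genes the cardiac muscle list had 1 at least 2-fold higher in replicate 1 and 3 lower, beside 9.71% and 10.6% of all detected genes, with a median log2 ratio of -1.01 and summed levels of 8318 CPM in replicate 1 and 12455 CPM in replicate 2. Its leading genes were Mir499, of the myosin gene Myh7b, with a log2 ratio of -1.21, and Mir208a, of the myosin gene Myh6, with 1.31. Mir208a was the gene of that list past 2-fold toward replicate 1, as Mir182 and Mir183 were. The 3 lower genes were Mir499, Mir1a-2 with a log2 ratio of -1.37 and Mir208b with -2.29. Mir208b, at 794 CPM in replicate 1 and 3444 CPM in replicate 2, moved furthest of the list. The hairpins of 4 of the 7 cardiac genes share 20 bases with other counted hairpins, so their reads may be among those with several mapping positions, and the list's share and sums are uncertain. The endothelial list had 3 of 4 genes detected, none past 2-fold, and a median of -0.35. Its sum was 89739 CPM in replicate 1 and 100994 CPM in replicate 2, from Mir126a (log2 ratio -0.35) and Mir221 (0.77). The part of any of these cell types in the cluster's difference was not tested.

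**Figure D4:**
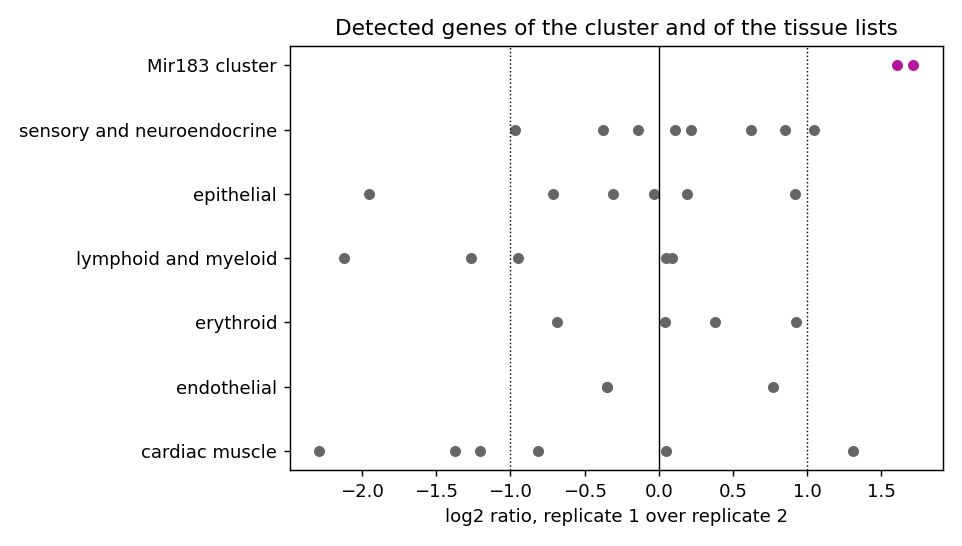
Log2 ratio of replicate 1 over replicate 2 of each detected gene, for the Mir183 cluster at the top and 6 lists of tissue and cell type microRNAs below it; dotted lines mark 2-fold. The neural list has no detected gene and is not drawn. Mir182 and Mir183 lie to the right of every other gene shown. This depends on the genes listed, as the lists were chosen with earlier results known. Mir31, an epithelial microRNA on none of them, had a log2 ratio of 3.50, and Mir182 stood at place 13 of all 340 detected genes.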

How the data were processed

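For each library the authors deposited a table of unnormalized counts of reads on microRNA genes, made on mm10 with GENCODE M21, per the file headers of the accompanying text. The sources used here do not name the aligner or the counter. The count columns were read from their values as counts without regard to strand, gene strand and opposite strand, and the gene strand was used. The first column totals 2756527 counts in replicate 1 and 4558006 in replicate 2. These are fewer than the gene-strand totals of 3748432 and 6305782, so over all genes that column is not the sum of the strands. For each of the 3 members it is that sum in both libraries. Each table also has 4 entries without a gene, left out of totals: reads with several positions (36.8% and 48.1% of all reads in replicates 1 and 2), unmapped reads (16.0% and 11.5%), reads outside genes (4.78% and 3.43%) and ambiguous reads, which were 0 on the gene strand. The labels give separate samples but 1 donor identifier, so the spread between the libraries may not be that between animals.

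CPM, exact Clopper-Pearson and Poisson intervals (scipy 1.17.1) and log2 ratios with a prior of 0.5 counts were computed from the counts. TMM factors (edgeR 4.0.16) used genes with 10 counts or more in each library, and DESeq2 1.42.0 size factors, total counts, other filters, no prior, both strands and each library alone were alternatives. CPM are without TMM, so ratios of CPM exceed the folds by 0.17 on the log2 scale. The ratio step was tested on simulated data. No test between groups was possible with 1 group.

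The members and the 7 lists were chosen with earlier results of these data known, and all 42 list entries were matched. Named genes are the members, the 3 genes nearest to each, the 2 most abundant detected genes of each list (or the top gene) and clusters whose 3 or more detected genes all moved in 1 direction. Others (Gm24195, Mir7b, Mir375, the rest of the sensory and neuroendocrine list, Mir200b, Mir31, Mir203, Mir142, Mir223, Mir208b, Mir1a-2, the Mir124a genes, Mir9-2, Mir335, Gm23049, the cluster from Gm22072 to Mir669h and the clusters at least 2-fold lower) were named after their values were seen.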

Additional observations from a re-analysis of the deposited data

Results flagged for a closer look

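Mir183 had 4 counts on the strand opposite to the gene in replicate 2, above the limit of 3 counts, and 3 such counts in replicate 1. This column is outside the levels given above. They were 4.44% of the Mir183 counts on either strand in replicate 2, with an exact 95% interval of 1.22% to 10.99%. In replicate 1 the share was 1.68%, from 0.347% to 4.82%. Mir182 had 1 in replicate 2 and 0 in replicate 1, and Mir96 had 0 in both. Of the 340 detected genes 22 in replicate 1 and 27 in replicate 2 had any opposite-strand count. No annotated gene overlaps the cluster on the other strand.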

How the results depend on the processing

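Of 55 alternative values for 13 results, 50 stayed within the spread between the libraries, the counting interval or 1.5 times the count. No log2 ratio changed direction, and the other results have no direction. A library alone always lies within the SD of 2 libraries around their mean. Those alternatives therefore could not move, and nothing is read from them. The log2 ratio of Mir182 ran from 1.66 with DESeq2 size factors to 1.88 with total counts, and that of Mir183 from 1.56 to 1.78. The 5 that moved were these. Mir96 averaged 0.582 CPM when reads were counted without regard to strand and 0.172 CPM with all reads as the denominator, since the denominator changes in each. All reads as the denominator lowered the other levels too, to 35.0 CPM for Mir182, 12.5 CPM for Mir183 and 0.00477% for the cluster's share, shifts that the SD between the libraries exceeds. Counts without regard to strand, which have smaller totals, raised Mir182 to 116 CPM and Mir183 to 42.3 CPM, again within that SD. Genes at least 2-fold higher in replicate 1 numbered 51 with total counts, and 149 with no filter on low counts against 110 lower, where more genes enter. Each library alone gave 36.2 to 134 CPM for Mir182, 13.6 to 46.95 CPM for Mir183 and 0.317 to 0.534 CPM for Mir96. The log2 ratio of Mir96 is not given under any setting, because it had 2 counts in each library. No paired analysis was possible because the series has 1 group. Depth limits Mir96 most, whose 2 counts allow up to 1.93 CPM in replicate 1 and 1.15 CPM in replicate 2.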

Other observations

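The counted microRNA genes nearest to the cluster on chromosome 6 had other values. Gm23049, 177428 bases away on the side of Nrf1, had 0 counts in both libraries. Mir335, in the imprinted gene Mest 571561 bases away on the side of Ube2h, reached 12191 CPM in replicate 1 against 20015 CPM in replicate 2, a log2 ratio of -0.89, where Mir182 had 1.71.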
